A study of Mus musculus with 2 samples.

Results

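The cells described here are leukemia cells that carried both transcripts of neutrophil granule proteins and transcripts of the DNA replication machinery. A cell was a member when it had 500 or more detected genes, 2 or more UMIs (unique molecular identifiers, 1 for each transcript molecule captured) over Camp and Ngp together, 2 or more UMIs over the 6 replication genes Rrm2, Tyms, Tk1, Pcna, Asf1b and 2810417H13Rik (now named Pclaf), and 0 UMIs of Mmp9. Of 8309 deposited cells, 7411 had 500 or more genes and are called kept cells, and 2603 were members. The WT-labelled library held 1220 members and the KO-labelled library held 1383. The members were chosen by their number of detected genes and their UMIs of these 9 genes, so their levels and the comparisons that follow are descriptions with no test.

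The leukemias were made from lineage-depleted bone marrow of Kat2a Flox/Flox mice, which either lacked the Mx1-Cre transgene (WT, Mx1-Cre -/-) or carried it (KO, Mx1-Cre+/-). Donors of both groups received pIpC, an interferon inducer that switches on Mx1-Cre, and their marrow was taken 4 to 6 weeks later, transduced with a retrovirus that encodes the MLL-AF9 fusion, and given to lethally irradiated hosts. Marrow of 5 terminal WT leukemias and of 4 terminal KO leukemias was frozen, thawed and pooled by genotype, and live YFP-positive single cells were sorted, YFP reporting the retrovirus, with a 10x Genomics library made for each genotype. With 1 library per genotype, and no record of which leukemia a cell came from, no difference between genotypes has a replicate check, and every interval given here is a 95% interval that covers counting error only.

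Neutrophils arise in the marrow through stages that fill different granules in turn. Promyelocytes make the primary (azurophil) granule proteins, such as myeloperoxidase and elastase. Myelocytes are the last stage that divides, and they make the secondary (specific) granule proteins, among them the antimicrobial peptide precursor encoded by Camp, the neutrophilic granule protein encoded by Ngp, lactoferrin (Ltf) and lipocalin (Lcn2). Mmp9, a gelatinase of the tertiary granules, comes on later, in cells that have usually left the cell cycle. The cells in question therefore join a secondary granule signal to a replication signal.

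Members were deeper than other kept cells and differed in depth between libraries. The median member held 3931 UMIs and 1431 genes in the WT-labelled library and 2515 UMIs and 1003 genes in the KO-labelled library, against 2588.5 and 1884 UMIs over all kept cells. Kat2a itself went against the labels, although its 3′ reads cannot check the excision, since the last exon is kept in the excised allele. Members had 80 Kat2a UMIs (15.6 CPM, UMIs of a gene per 1000000 UMIs) in the WT-labelled library and 452 (111 CPM) in the KO-labelled library. For this reason the libraries are called by their labels throughout. The libraries shared 28 cell barcodes, carried by 24 members. Members lay among the 5% of cells with the highest Scrublet doublet score of their library in 6.72% of cases in the WT-labelled library and 8.10% in the KO-labelled library.

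The members spread widely over the level of Camp and Ngp. Their summed Camp and Ngp UMIs ran from 2 to 1005 with a median of 62.5 in the WT-labelled library, and from 2 to 1083 with a median of 100 in the KO-labelled library. Cells sat mainly at the ends of this scale. In the WT-labelled library 459 members (37.6%, 34.9 to 40.4%) had fewer than 10 UMIs, 91 had 10 to 29 and 670 (54.9%, 52.1 to 57.7%) had 30 or more. In the KO-labelled library the numbers were 379 (27.4%, 25.1 to 29.8%), 120 and 884 (63.9%, 61.3 to 66.5%). Members with fewer than 10 UMIs are called the lower range here and those with 30 or more the upper range, limits set after the values were seen. From 20 to 45 UMIs, near the upper limit, there were 66 and 70 members.

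The lower limit of the rule was met by most cells of another type as well. In the WT-labelled library 85.3% of all kept cells reached 2 Camp and Ngp UMIs, as did 89.4% in the KO-labelled library. Kept cells with 3 or more UMIs over 6 monocyte and macrophage genes (Csf1r, Ms4a6c, Ms4a7, C1qa, C1qb and C1qc) reached it in 71.8% of 380 cells (median 2795 UMIs) and 78.9% of 356 cells (median 1920.5 UMIs). Such cells were taken to make neither transcript, which was not tested in these leukemia cells. Of those marked cells that were not members, Camp and Ngp together stood at a median of 2 UMIs in the WT-labelled library and 3 in the KO-labelled library. The share with 30 or more was only 1.05% (0.288 to 2.67%) and 5.06% (3.02 to 7.87%) among all marked cells. The name myelocyte-like is used for the upper range only, and the part of free RNA in the Camp and Ngp counts of the lower range was not tested.

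**Figure D1:**
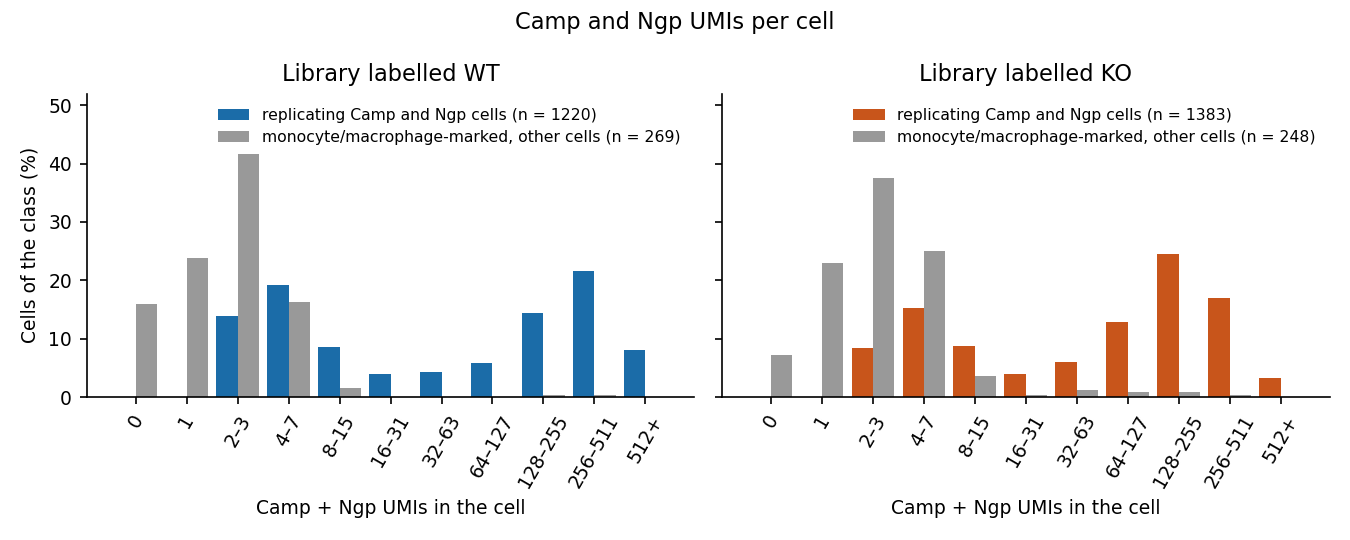
Bars give the percentage of cells of each class (vertical axis) by the number of Camp and Ngp UMIs in the cell (horizontal axis, classes that double in width), for members in colour and for monocyte and macrophage marked cells that are not members in grey, 1 panel per library. Members gather below 16 UMIs, where they overlap the grey bars, and again from 64 UMIs upward, where grey bars are near 0.

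The rule genes themselves had the following values in members. Camp (ENSMUSG00000038357, chromosome 9, 109847379 to 109849617, minus strand, GRCm38) had 16055 CPM in the WT-labelled library and 15930.4 CPM in the KO-labelled library, with a median of 9.5 and 19 UMIs per cell. Ngp (ENSMUSG00000032484, chromosome 9, 110419747 to 110423012, plus strand) had 24548 and 32746.5 CPM, with medians of 36 and 65 UMIs. Ngp was thus the more abundant of the pair in both libraries, and Camp was detected in 88.8% and 87.0% of members.

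Among the replication genes the clamp-associated factor 2810417H13Rik and the ribonucleotide reductase subunit Rrm2 gave the most UMIs. 2810417H13Rik stood at 687 CPM in the WT-labelled library and 855 CPM in the KO-labelled library, and Rrm2 at 574 and 682 CPM. Pcna, the sliding clamp of the replication fork, had 391 and 461 CPM, and thymidylate synthase (Tyms) had 249 and 297 CPM. All 6 had a higher CPM in the KO-labelled library, which had the shallower members. The median member carried 7 replication UMIs in both libraries. At the edge of the rule, 201 and 217 members had exactly 2 replication UMIs, while 408 and 417 cells met every other condition with 1. Likewise 64 and 51 members had exactly 2 Camp and Ngp UMIs, while 58 and 36 cells stood just outside with 1.

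Members made up 31.6% (30.1 to 33.0%) of kept cells in the WT-labelled library and 39.0% (37.4 to 40.6%) in the KO-labelled library. A rule that counts UMIs depends on depth, so cells of 1000 or more UMIs were cut at random to that number and the rule was applied again. The shares were then 15.5% (14.4 to 16.7%, 590 of 3800 cells) and 25.2% (23.7 to 26.7%, 843 of 3351 cells), which left out 66 and 194 kept cells. Cells that had 30 or more Camp and Ngp UMIs after thinning made up 10.8% (9.85 to 11.8%) and 18.5% (17.2 to 19.9%). The share was thus larger in the KO-labelled library at either depth, with intervals that did not overlap, and the distance was wider at equal depth. The limit of 500 genes left out 203 and 695 deposited cells, 86.7% and 70.9% of them with 30 or more Camp and Ngp UMIs. Of these cells 5 and 39 met the rest of the rule, and over every deposited cell the distance was narrower.

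Replication UMIs were commoner in cells with much Camp and Ngp than in cells with little. At equal depth, 17.3% (14.5 to 20.3%) of cells with 0 Camp and Ngp UMIs in the WT-labelled library had 2 or more replication UMIs, against 201 of 693 cells with 30 to 99 (25.6 to 32.5%). In the KO-labelled library the shares were 22.3% (17.6 to 27.6%) and 47.1% (43.4 to 50.7%). From 100 to 299 UMIs the shares were 27.2% and 39.7%. Between the libraries the intervals overlapped in every class below 30 UMIs and were apart from 30 to 99 and from 100 to 299 UMIs.

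Mmp9 moved along the same scale and in the other direction between libraries. An Mmp9 UMI was found in 19.6% (16.7 to 22.8%) of thinned cells with 30 to 99 Camp and Ngp UMIs in the WT-labelled library and in 6.17% (4.55 to 8.14%) in the KO-labelled library. Since the rule leaves out cells with Mmp9, this is given beside the larger share of members in the KO-labelled library, and its part in that share was not tested. Leaving the Mmp9 condition out raised the shares of members to 34.5% and 40.8%.

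**Figure D2:**
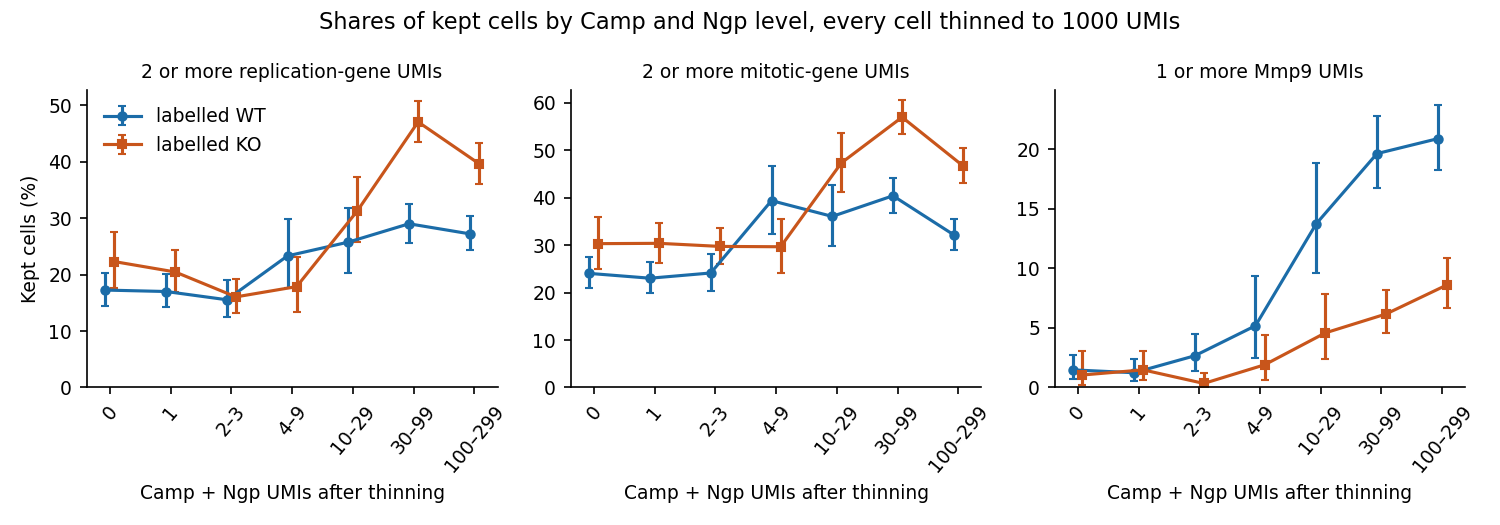
Points give the percentage of kept cells with 2 or more replication UMIs (left), 2 or more UMIs of 27 mitotic genes (middle) and 1 or more Mmp9 UMIs (right) by Camp and Ngp UMIs, with exact 95% binomial intervals. Cells were thinned to 1000 UMIs, and cells with fewer UMIs and classes under 20 cells were left out. The libraries lie apart in the left panel only from 30 UMIs upward, and at 100 to 299 UMIs the KO-labelled library had 39.7% and the WT-labelled library 27.2%.

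Along the Camp and Ngp level the secondary granule genes rose in both libraries, while the primary granule genes rose at first as a list and were lowest in the highest class. The level was cut into 6 classes (2 to 3, 4 to 9, 10 to 29, 30 to 99, 100 to 299 and 300 or more UMIs), which held 169, 290, 91, 107, 257 and 306 members of the WT-labelled library and 116, 263, 120, 190, 484 and 210 of the KO-labelled library. Depth did not follow the classes in order: median UMIs per member ran from 3091 to 5042.5 in the former and from 2171.5 to 3549 in the latter. Summed over 8 primary granule genes, the level in the WT-labelled library rose from 19908 CPM in the lowest class to 29264 CPM at 10 to 29 UMIs and then fell to 5922 CPM in the highest. In the KO-labelled library it was 15607 CPM in the lowest class, at most 19836 CPM and 6232 CPM in the highest.

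The primary granule genes did not all turn at the same place. Mpo (myeloperoxidase) was highest below 30 Camp and Ngp UMIs and was nearly gone at the top, with 2575 CPM at 4 to 9 UMIs and 128 CPM at 300 or more in the WT-labelled library, and 2632 and 180.5 CPM in the KO-labelled library. Elane (neutrophil elastase) peaked later, at 30 to 99 UMIs, with 17379.6 CPM in the WT-labelled library and 12739 CPM in the KO-labelled library, and stood at 3587 and 3827 CPM in the highest class. Ctsg (cathepsin G) went from 4177 CPM at 10 to 29 UMIs to 294 CPM in the WT-labelled library and from 3362 to 282 CPM in the KO-labelled library. Ms4a3, a membrane protein of granulocyte precursors, also peaked in the middle of the scale and kept 637 and 781 CPM at the top. Mpo and Ctsg had thus dropped further by the highest class than Elane and Ms4a3.

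The secondary granule genes climbed in steps. Of 11 with 100 or more UMIs in both libraries, 9 had their highest level in the 300 or more class in both, and all 11 had it at 30 or more in both. Over all 3968 such genes outside the rule, 2.49% were highest at 300 or more in both libraries, 21.4% at 30 or more and 53.8% below 30. Fcnb (ficolin B) reached its plateau early, at 1595 CPM for 30 to 99 UMIs and 1923 CPM at the top in the WT-labelled library, and 2021 and 2288 CPM in the KO-labelled library. Ltf came last: 64.6 CPM at 30 to 99 UMIs against 296 CPM at the top in the WT-labelled library, and 72.9 against 617 CPM in the KO-labelled library. Lcn2 stood between the 2 patterns, rising from 1904 to 5080.4 CPM and from 1511 to 3402 CPM over the same classes. Chil3, a chitinase-like protein of myeloid cells, was already high in the lowest class of the WT-labelled library (12922 CPM) and reached 34592 CPM, while in the KO-labelled library it went from 6508 to 28644 CPM.

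Transcription factors of the lineage also changed along the scale. Cebpe, which drives secondary granule genes, rose from 234 CPM at 4 to 9 UMIs to 748 CPM at 100 to 299 in the WT-labelled library, and from 173 to 619 CPM in the KO-labelled library. Irf8, a factor of the monocyte and dendritic lines, went the other way, from 420.5 to 12.0 CPM and from 226 to 7.85 CPM between the lowest and the highest class. Gfi1, a repressor needed for neutrophil formation, peaked at 30 to 99 UMIs in the WT-labelled library (115 CPM) and lay between 54.0 and 67.5 CPM from 30 UMIs upward in the KO-labelled library. Spi1 (PU.1) varied little, between 471 and 656 CPM and between 515 and 765 CPM.

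The 6 genes of the phagocyte NADPH oxidase list all had their highest level at 30 or more UMIs in both libraries, against 21.4% of all genes. Cybb, the catalytic subunit, stood at 106 CPM in the lowest class and 374 CPM in the highest in the WT-labelled library, and at 71.2 and 259 CPM in the KO-labelled library. The late neutrophil list was carried by S100a8 and S100a9, which encode calprotectin and start in myelocytes: S100a8 rose from 1024 to 34670.5 CPM and from 1443 to 36463 CPM. The other genes of the list went different ways. Wfdc21 rose from 71.3 to 739 CPM and from 55.0 to 540 CPM between the lowest and the highest class, and the stefin gene Stfa2l1 reached 445 and 173 CPM there. Mmp8, in contrast, reached at most 30.6 CPM in any class, the chemokine receptor Cxcr2 6.61 CPM and the cytokine Il1b 3.32 CPM. Of 13 genes of the list tested, 5 were at least 2-fold higher in the upper than in the lower range in both libraries and 2 at least 2-fold lower.

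**Figure D3:**
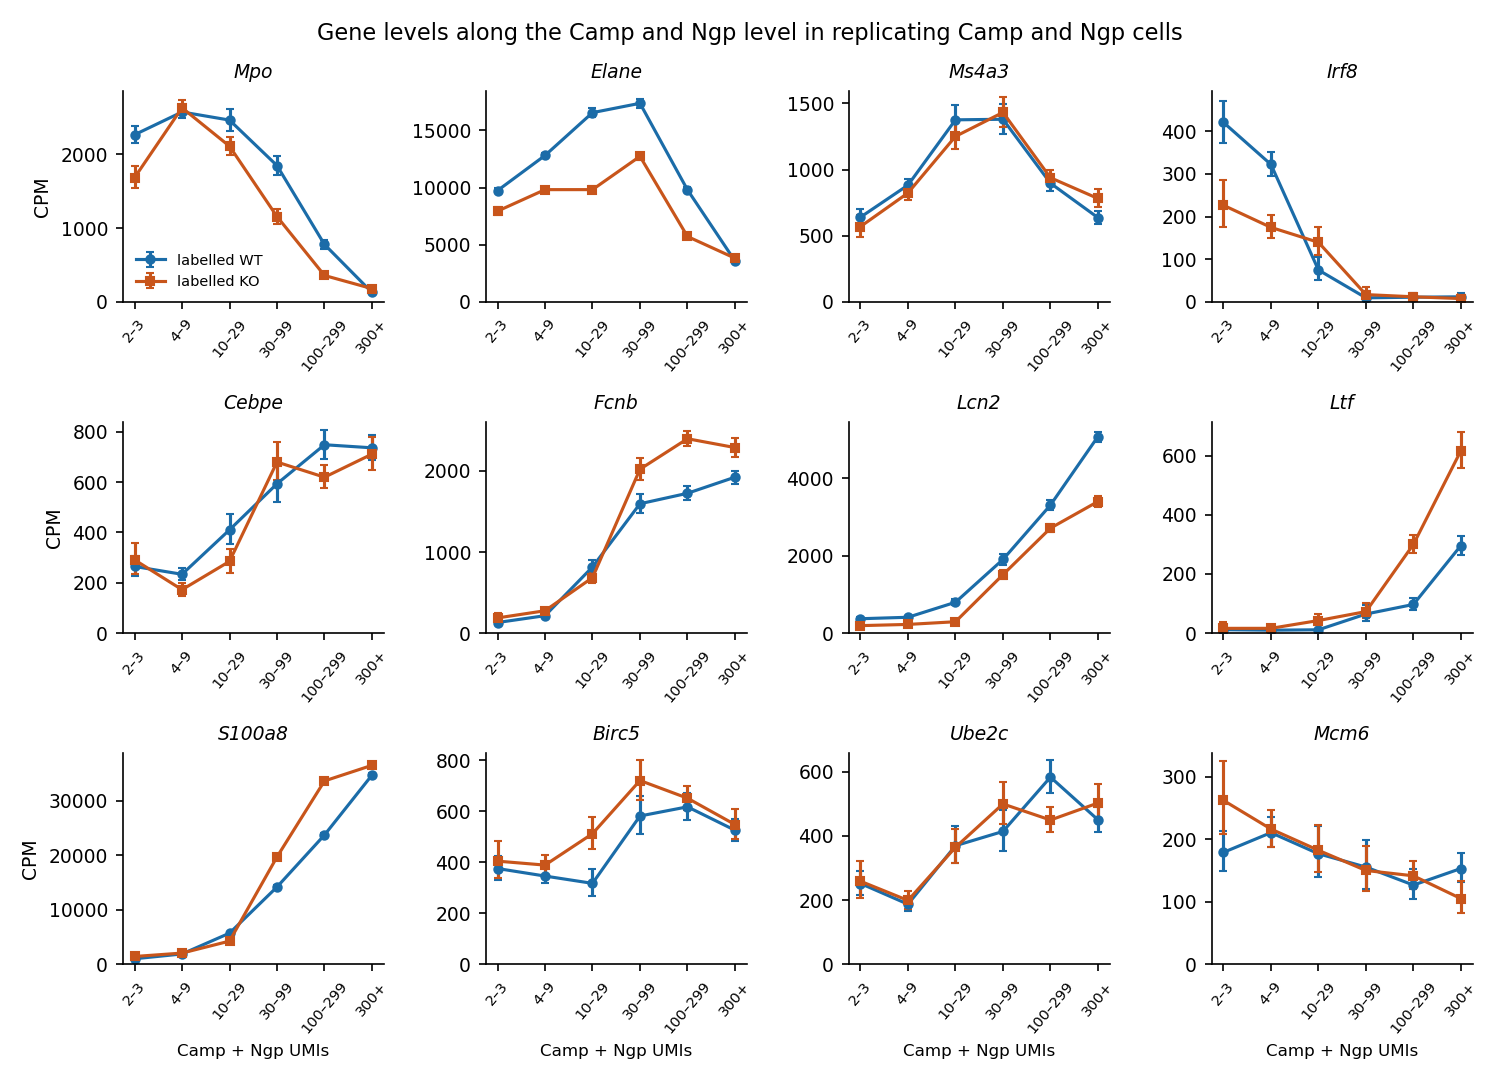
Lines give the CPM of 12 genes (vertical axes, from 0) in 6 classes of Camp and Ngp UMIs (horizontal axes) for members of each library, with exact 95% Poisson intervals. Mpo and Irf8 fell along the scale, Elane and Ms4a3 peaked in the middle, Cebpe and Fcnb reached a plateau from 30 to 99 UMIs, and Lcn2, Ltf and S100a8 were highest at 300 or more in both libraries.

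Mitotic genes were highest toward the upper end of the scale. Of 22 mitotic genes with 100 or more UMIs in both libraries, 19 had their highest level at 30 or more Camp and Ngp UMIs in both and none had it below 30 in both, against 21.4% and 53.8% of all genes. The steps were small, since 1 of 27 mitotic genes passed 2-fold between the upper and the lower range. Of 23 S-phase genes outside the rule, 14 (60.9%) had their highest level below 30 in both, a share near that of all genes, and 3 at 30 or more. Summed, the mitotic list rose from 3265 CPM in the lowest class to 5552 CPM at 100 to 299 UMIs in the WT-labelled library and from 3788 to 5446 CPM, at 30 to 99 UMIs, in the KO-labelled library. The S-phase list lay between 2483 and 3125 CPM and between 2666 and 3386 CPM over all classes.

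Birc5 (survivin) had 375 CPM in the lowest class and 617 CPM at 100 to 299 UMIs in the WT-labelled library, and 404 and 651 CPM in the KO-labelled library. Ube2c, which loads ubiquitin for the anaphase promoting complex, went from 252 to 583 CPM and from 259 to 449 CPM. The replicative helicase subunit Mcm2 went down, from 105 to 80.4 CPM and from 133 to 59.6 CPM between the lowest and highest class, as did Mcm6, from 179 to 153 CPM and from 262 to 105 CPM. Small falls in CPM are shared by many genes. The median log2 ratio of the upper over the lower range was -0.25 and -0.26 over all genes tested, and -0.28 and -0.38 over the 24 S-phase genes. Of these 24, 16 lay below 0 in both libraries and 4 above. Summed, the S-phase list had -0.15 and -0.16. Slbp, which binds histone mRNA, did not follow the helicase genes and was highest above 30 UMIs, with up to 496 and 617 CPM. The cell cycle inhibitor Cdkn1c was higher at 100 to 299 UMIs (205 and 107 CPM) than in the lowest class (36.4 and 12.9 CPM).

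The ribosomal protein list decreased with Camp and Ngp, and the self-renewal list was mixed. The 79 ribosomal protein genes took 186181 CPM in the lowest class and 104978 CPM in the highest in the WT-labelled library, and 154987 and 84396 CPM in the KO-labelled library. Their median log2 ratio of the upper over the lower range was -0.67 and -0.83, against -0.25 and -0.26 over all genes tested. Of 9 self-renewal genes tested, 3 were at least 2-fold lower in the upper than in the lower range in both libraries, and 3 lay above 0 in both. Hoxa9, a target of MLL-AF9, lay between 169 and 242 CPM and between 112 and 144 CPM. Flt3 and Cd34, markers of immature progenitors, fell from 59.7 to 2.57 CPM and from 74.2 to 0.856 CPM in the WT-labelled library, and from 61.5 to 1.57 CPM and from 139 to 3.14 CPM in the KO-labelled library.

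Set directly against each other, the upper range had 150 of 5784 genes (2.59%) at least 2-fold higher than the lower range in both libraries and 366 (6.33%) at least 2-fold lower. The median log2 ratio over these genes was -0.25 in the WT-labelled library and -0.26 in the KO-labelled library. CPM totals include Camp and Ngp, which had 82025 against 975 CPM and 85827 against 1431 CPM. How far this lowered other genes was not tested. Genes needed 100 UMIs, and the genes of the rule were left out here and in each comparison that follows. Of 11 secondary granule genes 9 were higher and none lower. Of 8 primary granule genes 4 were lower and none higher, and of 27 mitotic genes 1 was higher. All 6 monocyte and macrophage genes tested were lower in the upper range, with the list at 125 against 1064 CPM in the WT-labelled library and 164 against 1208 CPM in the KO-labelled library.

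The 10 highest genes held the stefin genes Stfa2l1, Stfa2 and BC100530 beside Ltf, S100a8 and S100a9, and the 10 lowest held the hemoglobin gene Hbb-bt beside genes of other myeloid cells. Ltf was 185 against 10.5 CPM in the WT-labelled library and 342 against 16.2 CPM in the KO-labelled library. Orm1, an acute phase protein, was 85.8 against 1.37 CPM and 70.0 against 3.86 CPM. The integrin Itgb2l was 133 against 5.47 CPM and 75.8 against 4.64 CPM, and S100a9 was 22341 against 1124 CPM and 17870.3 against 1081 CPM. In the lower range, Irf8 was higher, at 353 against 11.2 CPM and 187 against 11.9 CPM, and so was Cd34, at 58.8 against 1.60 CPM and 141 against 11.0 CPM. Mcpt8, a protease of basophils, and Cpa3, a carboxypeptidase of mast cells and basophils, were higher there as well. Mcpt8 was 163 against 7.22 CPM and 339 against 27.3 CPM, but 10 cells held 70.7% and 62.9% of its UMIs in the lower range.

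Cells of the lower range were not alike in these genes. Irf8 was detected in 52.9% of 459 cells in the WT-labelled library and 32.2% of 379 in the KO-labelled library, Mpo in 63.8% and 58.6%, and Elane in 92.2% and 78.6%.

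The upper range was then compared with cells of the same 30 or more Camp and Ngp UMIs that had fewer than 2 replication UMIs and no Mmp9, 602 and 600 cells with medians of 2165 and 1654.5 UMIs against 3415 and 2271.5 in the upper range. Camp and Ngp were not equal between them, with 82025 CPM in the upper range against 98141 CPM in the WT-labelled library and 85827 against 101525 CPM in the KO-labelled library, a log2 ratio of -0.26 and -0.24. In both libraries 325 of 5216 genes (6.23%) were at least 2-fold higher in the upper range and 71 (1.36%) at least 2-fold lower. Of 23 S-phase genes tested, all outside the rule, 19 were higher and none lower, and of 27 mitotic genes 15 were higher and none lower. Their sums were 2741 against 748 CPM and 4966 against 1592 CPM in the WT-labelled library, and 3016 against 929.7 CPM and 5059 against 2701 CPM in the KO-labelled library.

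G1/S cyclins and histone genes were at the head of this comparison. Ccne1 (cyclin E1) was 37.3 against 2.07 CPM in the WT-labelled library and 49.3 against 2.68 CPM in the KO-labelled library. Pbk, a mitotic kinase, was 108 against 6.91 CPM and 158 against 10.7 CPM. Fbxo5, an inhibitor of the anaphase promoting complex, was 92.6 against 8.29 CPM and 105 against 9.84 CPM. Several replication-dependent histone genes stood beside them, such as Hist1h2ap with 693 against 76.0 CPM and 568 against 59.1 CPM, but these genes are near copies of each other and their counts are uncertain.

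Among the 10 genes lowest in the upper range were Mmp8, Retnlg, Ifitm6, Scrg1, Tcp11l2 and the chemokine Ccl6. Mmp8 (neutrophil collagenase) was 6.82 against 46.3 CPM in the WT-labelled library and 8.81 against 85.9 CPM in the KO-labelled library. Retnlg, a resistin-like gene of mature neutrophils, was 11.2 against 80.1 CPM and 29.5 against 133 CPM. Ifitm6 was 427 against 1699.6 CPM and 317 against 1087 CPM. Of 12 late neutrophil genes tested 4 were lower by 2-fold, and all 12 lay below 0 in both libraries. Of 11 secondary granule genes 4 were lower (Ltf, Lyz2, Anxa1 and Ifitm6) and none higher: Ltf was 185 against 550.4 CPM and 342 against 850.1 CPM, while Fcnb was 1796 against 1696 CPM and 2289 against 2292 CPM. The list sum had a log2 ratio of -0.35 in the WT-labelled library and -0.20 in the KO-labelled library, against -0.26 and -0.24 for Camp and Ngp. Chil3 alone gave 32666 of the 45678 CPM and 26555 of the 38876.5 CPM of the list in the upper range. The median over the 11 genes was lower, at -0.64 and -0.65, against 0.13 and 0.04 over all genes tested. The primary granule list leaned the other way, 0.62 (0.60 to 0.65) and 0.18 (0.14 to 0.21) higher, with no gene past 2-fold in both libraries. The stress list (Fos, Jun, Junb, Ier2 and Dusp1 were tested) was lower, at 4297 against 6692 CPM and 5863 against 9326 CPM.

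**Figure D4:**
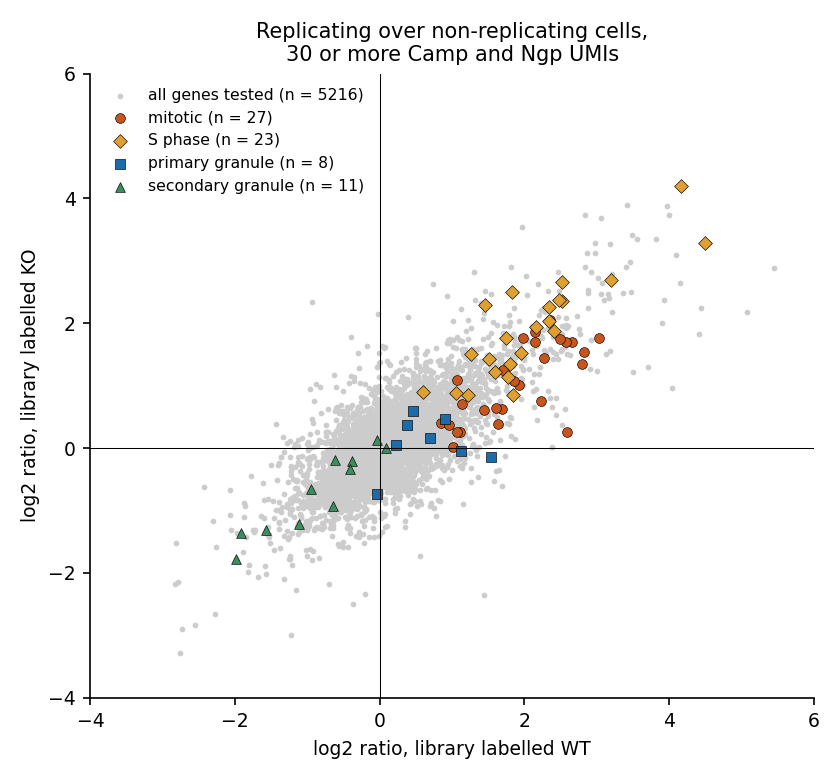
Each point is 1 of 5216 genes, placed by its log2 ratio of replicating over non-replicating cells with 30 or more Camp and Ngp UMIs in the WT-labelled library (horizontal axis) and the KO-labelled library (vertical axis). All 23 S-phase and all 27 mitotic genes lie above 0 in both libraries, and 9 of 11 secondary granule genes lie below 0 in both.

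Against all Camp and Ngp cells with fewer than 2 replication UMIs and no Mmp9, 1457 and 1575 cells, the members as a whole had 377 of 7374 genes (5.11%) at least 2-fold higher and 193 (2.62%) lower. Of 24 S-phase genes 23 were higher, and of 27 mitotic genes 23. The antigen presentation genes Cd74 and H2-Aa, the chemokine Ccl6 and the lectin Clec4a3 were among the 10 lowest, of which Ccl6 was also among the 10 lowest in the upper range. Cd74 was 1.17 against 72.3 CPM in the WT-labelled library and 93.1 against 701 CPM in the KO-labelled library. Ccl6 was 35.7 against 254 CPM and 28.4 against 368 CPM. Of 6 monocyte and macrophage genes 2 were lower, and their list summed to 546 against 1280.1 CPM and 569.6 against 1422 CPM. Of these comparison cells 41.3% and 38.1% had 30 or more Camp and Ngp UMIs, against 54.9% and 63.9% of members, so the makeup of the groups and a difference at a like granule level cannot be told apart here.

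Replicating cells with fewer than 2 Camp and Ngp UMIs and no Mmp9 were few, 78 and 50 cells. Members had 76 of 5396 genes (1.41%) at least 2-fold higher than these cells in both libraries and 137 (2.54%) lower, but scaling by the median of ratios gave 148 higher and 73 lower. S100a8 was 14438 against 625 CPM in the WT-labelled library and 18699 against 1214 CPM in the KO-labelled library. Fcnb was 1024 against 109.7 CPM and 1441 against 181 CPM, and Cdkn1c was 116 against 12.2 CPM and 70.8 against 10.6 CPM. No S-phase gene of 22 and no mitotic gene of 26 passed 2-fold in either direction. Summed, the mitotic list was still higher in members, by 0.30 (0.20 to 0.40) and 0.53 (0.37 to 0.71) on the log2 scale. Of its 26 genes tested, 14 lay above 0 in both libraries and 2 below. The S-phase list had 0.088 (-0.023 to 0.20) and 0.17 (-0.011 to 0.35). Of 6 monocyte and macrophage genes 5 were lower in members, and the lysosomal protease gene Ctss, of macrophages and other antigen presenting cells, was 79.5 against 389.9 CPM and 101 against 692 CPM.

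Mmp9-positive cells had a pooled Camp and Ngp level like that of the upper range, 82217 against 82025 CPM in the WT-labelled library and 86599 against 85827 CPM in the KO-labelled library. The groups were not matched on it, since Mmp9-positive cells had no lower limit and 83.0% and 82.0% of them had 30 or more UMIs. Mmp9-positive cells had medians of 178 and 155 Camp and Ngp UMIs, against 276 and 190 in the upper range. They numbered 640 and 217, of which 115 and 65 had 2 or more replication UMIs. The upper range had 178 of 5067 genes (3.51%) at least 2-fold higher and 131 (2.59%) lower. Mmp8 was 6.82 in the upper range against 254 CPM and 8.81 against 165 CPM, Retnlg 11.2 against 432 CPM and 29.5 against 324 CPM, and the formyl peptide receptor Fpr1 5.21 against 78.8 CPM and 1.76 against 46.9 CPM. Of 23 S-phase genes 9 were higher in the upper range and of 27 mitotic genes 11, with all genes of both lists above 0 in both libraries. Elane was 8163 against 2719 CPM in the WT-labelled library and 6634 against 4588 CPM in the KO-labelled library, and Ltf 185 against 1315 CPM and 342 against 1469 CPM. The upper range was thus above the Mmp9-positive cells in Elane and below them in Ltf and in genes of later neutrophils.

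Kat2a encodes a histone acetyltransferase, and the study asked what its loss does to transcription and to cell-to-cell variability in the leukemia. Within members 311 of 6050 genes (5.14%) were at least 1.5-fold higher in the KO-labelled library and 536 (8.86%) at least 1.5-fold lower. With cells thinned to 1000 UMIs the numbers were 176 and 189. In the upper range the numbers were 255 of 4237 (6.02%) and 316 (7.46%), and in the lower range 240 of 3981 (6.03%) and 305 (7.66%). The median log2 ratio over all genes tested was -0.013, 0.023 and 0.028. Since the share of members in the upper range was larger in the KO-labelled library, though not among cells with 1000 or more genes (49.1% in the WT-labelled library and 46.1% in the KO-labelled library), the ratios are given for the ranges as well as for all members.

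The primary granule list was lower in the KO-labelled library in each range, by 0.39 on the log2 scale over all members, 0.28 in the upper range and 0.30 in the lower range. None of the 8 genes tested in all members and in the lower range, or of the 7 tested in the upper range, passed 1.5-fold. Elane stood at 10463 CPM in the WT-labelled library and 7907 CPM in the KO-labelled library, a log2 ratio of -0.40 (-0.42 to -0.38), with -0.30 in the upper range and -0.34 in the lower. Prtn3 (proteinase 3) had 2905 and 1962 CPM, a log2 ratio of -0.57 (-0.61 to -0.53). Mpo differed between the ranges, with -0.47 (-0.58 to -0.36) in the upper and -0.043 (-0.11 to 0.02) in the lower, and Ms4a3 was higher, not lower, in the upper range, at 0.22 (0.13 to 0.30). The direction of the list turned when 816 members of each library were matched on total UMIs, which gave 0.055 for the list, -0.0034 for Elane, 0.38 for Mpo and -0.24 for Prtn3. Of the matched members 61.6% and 57.0% were in the upper range.

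The secondary granule genes split. Ltf (1.08, 0.91 to 1.24) was higher in the KO-labelled library by over 1.5-fold, and Fcnb (0.49, 0.44 to 0.55), Cd177 (0.47, 0.38 to 0.55) and Lyz2 (0.43, 0.37 to 0.48) were higher by less, on the log2 scale. Itgb2l (-0.61, -0.88 to -0.35) was lower by over 1.5-fold, and Lcn2 (-0.43, -0.47 to -0.39) and Chil3 (-0.39, -0.40 to -0.38) by less. Ltf stood at 185 CPM in the upper range of the WT-labelled library and 342 CPM in that of the KO-labelled library, and was detected in 16.9% and 27.3% of these cells, the shallower library having the larger share. Within members Chil3 differed most in the lower range, 11667 against 4921 CPM, a log2 ratio of -1.25 (-1.29 to -1.21), and less in the upper range, 32666 against 26555 CPM, with -0.30 (-0.31 to -0.28). The difference in Chil3 was not particular to members. Monocyte and macrophage marked cells that were not members had 24124 against 5892 CPM. Non-replicating Camp and Ngp cells with fewer than 10 UMIs had 18739.5 against 6799 CPM. S100a8 and S100a9, whose products form 1 complex, had log2 ratios of 0.21 and -0.32 in the upper range. With members matched on total UMIs, Ltf stood at 0.085, below 1.5-fold, Fcnb at 0.090 and S100a8 at -0.32, while Lcn2 stood at -1.16 and Chil3 at -0.80.

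The mitotic list barely differed in sum, by 0.11 (0.079 to 0.14) over all members and 0.027 (-0.0098 to 0.064) in the upper range, but its genes parted. Of 27 genes 6 were at least 1.5-fold lower in the KO-labelled library and none higher, and in the upper range 7 of 26 were lower. Mki67, the Ki-67 antigen, was 63.0 CPM in the WT-labelled library and 20.3 CPM in the KO-labelled library, a log2 ratio of -1.63 (-2.0 to -1.28), and was detected in 20.3% and 4.99% of members. Top2a (topoisomerase II) was 194 and 95.1 CPM, Cenpf 60.2 and 23.5 CPM, Cenpe 51.5 and 27.9 CPM and the motor protein Kif11 43.1 and 26.5 CPM. Against these, the centromeric histone Cenpa was higher, at 274 and 388 CPM, as were Cdk1 (291 and 348 CPM), Birc5 (455 and 543 CPM) and Nusap1 (187 and 246 CPM), none of them by 1.5-fold. Mki67, Top2a, Cenpf, Cenpe and Kif11 had intervals below 0 in both ranges, and Mki67 kept a log2 ratio of -1.76 with matched UMIs. Of 24 S-phase genes 1, Pola1, was lower by 1.5-fold and none was higher.

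Among other lists, the stress list was 0.36 (0.33 to 0.38) higher in the KO-labelled library and 2 of its 5 genes passed 1.5-fold, with Junb at 461 and 694 CPM and Dusp1 at 759 and 1152 CPM, while Jun (1016 and 870.4 CPM) was lower. The ribosomal protein list was lower by 0.36, with 77 of 79 genes below 0 and 7 lower by 1.5-fold, 8.86% as over all genes. Neither difference was particular to members, since over all kept cells the stress list was 0.30 higher and the ribosomal protein list 0.29 lower. The inhibitors of cyclin-dependent kinases went both ways: Cdkn1a (p21) was 72.3 and 126 CPM and Cdkn1c (p57) 116 and 70.8 CPM. Hoxa9 was lower, at 206 and 134 CPM, a log2 ratio of -0.62 (-0.77 to -0.47), and this was alike in the upper range (-0.57) and the lower range (-0.56). Irf8 was lower in the lower range, 353 against 187 CPM, while in the upper range it was near 0 in both, at 11.2 and 11.9 CPM. Ncf1, a cytosolic subunit of the NADPH oxidase, was 179.8 and 109.8 CPM.

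**Figure D5:**
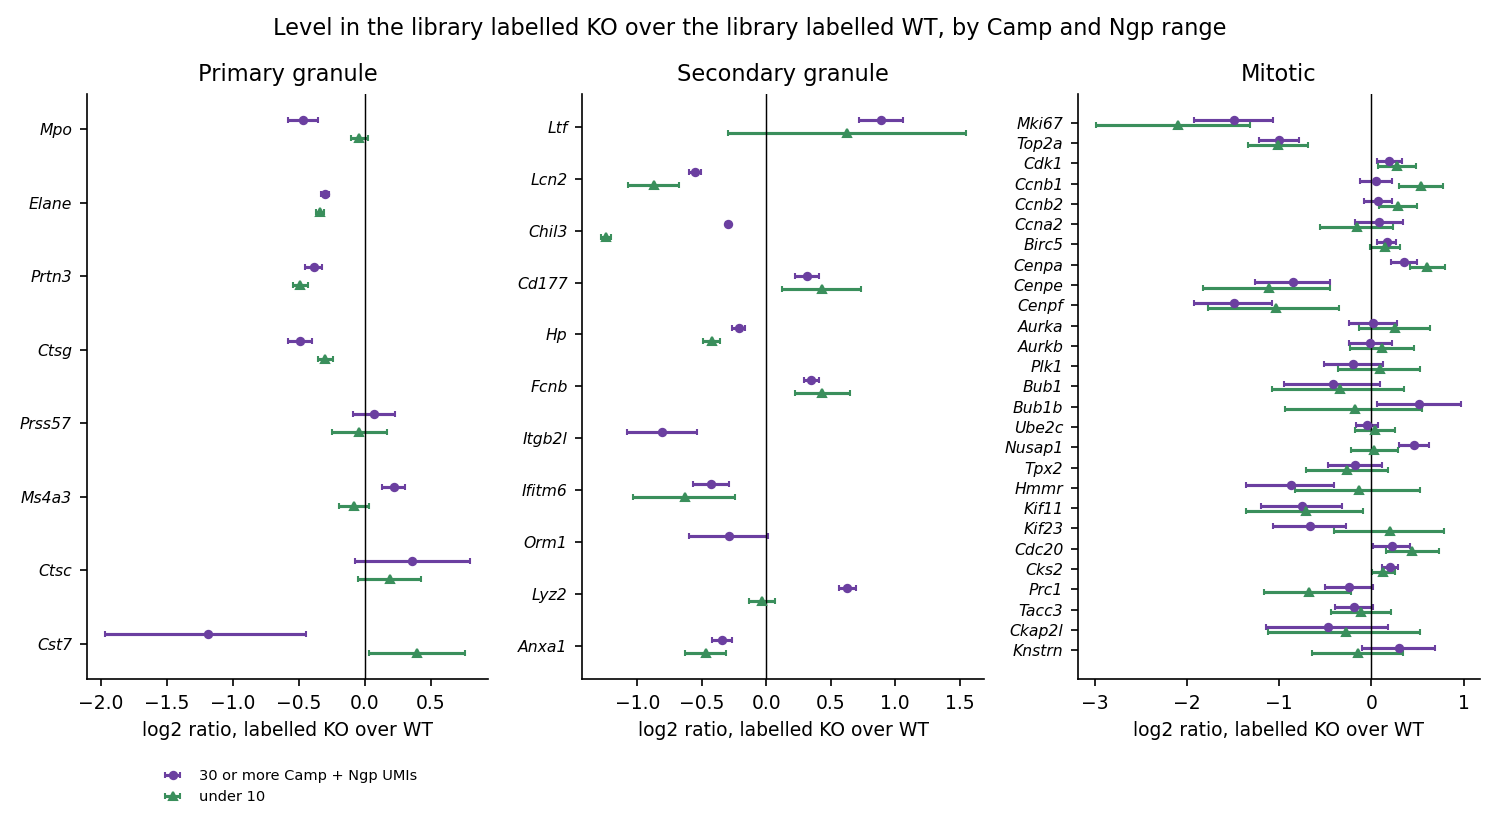
Points give the log2 ratio of the KO-labelled library over the WT-labelled library (horizontal axes) for genes of 3 lists (vertical axes), in members with 30 or more Camp and Ngp UMIs (circles) and with fewer than 10 (triangles), with exact 95% intervals for counting error and genes under 30 UMIs left out. Elane, Prtn3 and Ctsg lie below 0 in both ranges, Ltf, Cd177 and Fcnb above 0 and Lcn2, Chil3 and Itgb2l below 0 in the upper range, and Mki67, Top2a, Cenpe, Cenpf and Kif11 below 0 in both ranges.

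Several of the genes with the most extreme ratios between the libraries were held by few cells, and others were spread over many. Syce1, a meiotic gene, had 0 UMIs in the WT-labelled library and 146 in the KO-labelled library, spread over 96 members, at least 61.2-fold higher by a floor of 3 counts over the group. Cd74 had 6 and 380 UMIs, 72.1% of the latter in 10 cells. The hemoglobin genes Hba-a2 and Hbb-bs were higher too, with 98.6% and 95.3% of the UMIs of the KO-labelled library in 10 cells, and so was the platelet factor Pf4, with 99.6% in 10 cells. Gm5900, a predicted gene, had 295 UMIs over 248 members of the WT-labelled library and 8 in the KO-labelled library. The linker histone gene Hist1h1e had 705 UMIs over 397 members and 124 over 91. Kat2a was among the 10 highest, with a log2 ratio of 2.83 (2.48 to 3.19) over all members and 3.12 (2.53 to 3.77) in the upper range. Syce1, Cd74, Pf4 and Kat2a were also among the 10 highest over all kept cells, and Gm5900 was the lowest there.

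The Ras genes Nras and Hras differed in opposite directions. Nras, a GTPase of growth factor signalling, had 26.1 CPM in the WT-labelled library and 316 CPM in the KO-labelled library, and Hras had 132 and 31.4 CPM. Both were concentrated. The 1290 Nras UMIs of the KO-labelled library came from 171 members, 32.3% of them from 10 cells and up to 81 in 1 cell, and the 679 Hras UMIs of the WT-labelled library came from 140 members, 52.3% from 10 cells. In the lower range Nras was 33.3 and 548 CPM and Hras 247 and 47.1 CPM, each among the 10 most extreme genes there, and neither was among the 10 most extreme in the upper range.

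In the upper range Kat2a, Gm5900, Hist1h1e and Hist1h2ae were again among the 10 highest or lowest. After Kat2a, the highest ratios were those of Eif2s3y, a gene of the Y chromosome (9.62 and 55.5 CPM), the cytokine Osm (22.1 and 87.7 CPM), the chitinase-like Chil1 (23.7 and 85.0 CPM) and the interferon-induced Ifitm3 (58.5 and 174 CPM). The lowest, after Gm5900, were Arglu1, a splicing regulator (41.7 and 7.93 CPM), Hist1h1e (175 and 35.7 CPM) and the eosinophil granule gene Prg2 (159 and 34.8 CPM), whose UMIs in the WT-labelled library came to 96.0% from 10 cells. Stfa2, Stfa2l1 and Gm5483 of the stefin family were lower as well, Stfa2l1 at 291 and 75.8 CPM, but these genes are near copies of each other and their counts are uncertain. Xist and Tsix, genes of the X chromosome, differed in the opposite direction to Eif2s3y. Xist was 171 and 44.7 CPM in non-replicating cells with 30 or more Camp and Ngp UMIs. Tsix was 7.63 and 1.77 CPM over all kept cells. The sex of the pooled leukemias was not given, and its part in the differences between the libraries was not tested.

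Markers of other blood cells were present in some members. Of the 10 monocyte and macrophage genes 4 were at 0 in members of the WT-labelled library and 2 in the KO-labelled library, and the list summed to 546 and 569.6 CPM, with 125 and 164 CPM in the upper range. At least 3 UMIs of that list were found in 26.6% and 19.3% of members, and of the T and NK cell list in 12.5% and 13.4%, where Nkg7, a granule protein of cytotoxic cells, gave 1256 of 1259 and 1335 of 1338 UMIs. The 7 erythroid genes summed to 20.3 and 396 CPM, but only 2 and 13 members had 3 or more UMIs of them, and 10 cells held 95.2% of those UMIs in the KO-labelled library. Basophil and mast cell genes summed to 103 and 276 CPM, in 27 and 68 members with 3 or more UMIs, and fell to 9.62 and 32.6 CPM in the upper range. Doublets and free RNA were not separated from these groups, and their part was not tested.

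The difference in variability between the libraries was smaller in thinned members than at the cells' own depth. Members of 1000 or more UMIs, 1217 and 1373 cells, were thinned to 1000, which left out 3 and 10 members. The CV (coefficient of variation, the SD of the linear counts divided by their mean) then had a median of 2.23 in the WT-labelled library and 2.29 in the KO-labelled library over 1336 genes detected in 10% of members. The median log2 ratio was 0.043, and 60.3% of genes had the higher CV in the KO-labelled library. At the cells' own depth, scaled to 10000 counts per cell, the median log2 ratio was 0.31 and 92.9% of 3348 genes had the higher CV in the KO-labelled library, which had the shallower cells. These settings differed in genes and scaling as well as depth, and thinning adds sampling noise, so the part of depth was not tested. Within the ranges the thinned ratio was smaller, 0.032 with 56.9% of 1256 genes in the upper range and 0.019 with 53.0% of 1481 genes in the lower range. Non-replicating cells with 30 or more Camp and Ngp UMIs gave 0.000621, with 50.1% of 1159 genes above 0.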

How the data were processed

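Single-cell RNA-seq was made from 1 pool of leukemias per genotype. The authors deposited UMI counts per gene and cell in 1 matrix of 27998 genes and 8309 cells, made with Cell Ranger 1.3.1 on mm10 per the submitters' processing notes; the values are raw counts, not normalized. Barcode suffixes were assigned to libraries after the study's analysis code, since the labels do not give them. From the counts, UMIs were summed over the cells of a class and given as CPM, log2 ratios had exact conditional binomial intervals, levels Poisson intervals and shares Clopper-Pearson intervals, all at 95%. No test was possible with 1 library per genotype, so genes with 100 or more UMIs were called by size: 1.5-fold between libraries, and 2-fold in both libraries between cell classes. A monocyte marker planned for the lists is not reported here and was left out of every sum. Genes were named from the gene lists, or as the 10 highest and 10 lowest of a comparison. The members and lists were chosen with earlier results of these data known. Thinning drew 1000 UMIs per cell (seed 7). Scrublet (scanpy 1.11.5) marked 5 of 8309 cells by its own threshold and so had not worked; no doublets were removed, and the highest 5% of scores per library were left out as an alternative. Scripts ran in Python 3.11.15 with numpy 2.4.6, scipy 1.17.1 and pandas 2.3.3 and were tested on simulated data. Gene positions are from GENCODE M21 on GRCm38.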

Additional observations from a re-analysis of the deposited data

Results flagged for a closer look

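In 4 gene lists the ratio of the list sum in members over comparison cells had opposite directions in the libraries. This was not tested, each library being 1 sample. Against replicating cells with fewer than 2 Camp and Ngp UMIs, the eosinophil list had a log2 ratio of 1.34 in the WT-labelled library and -3.40 in the KO-labelled library. In members of the WT-labelled library, 10 cells held 86.4% of the UMIs of that list. Against Camp and Ngp cells without replication genes, the late neutrophil list had -0.32 in the WT-labelled library and 0.091 in the KO-labelled library. Its median over genes was -0.62 and -0.60, and of 13 genes tested 10 lay below 0 in both libraries and 0 above in both. Within cells of 30 or more Camp and Ngp UMIs the sum had -0.61 and -0.27. The list of inhibitors of cyclin-dependent kinases had -0.094 and 0.15, and 0.08 and 0.39 within the same cells. The basophil and mast cell list had -0.31 and 1.08, with 62.2% and 41.2% of its UMIs in members held by 10 cells.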

How the results depend on the processing

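No paired analysis was possible because each genotype had a single pool. The share of members, in the WT-labelled and KO-labelled libraries, was 15.5% and 25.2% after thinning, 27.2% and 35.7% with 4 or more Camp and Ngp UMIs, 23.0% and 28.9% with 4 or more replication UMIs, 48.8% and 65.8% among cells with 1000 or more genes, 34.5% and 40.8% with no condition on Mmp9, and 33.5% in the KO-labelled library over every deposited cell. In that last setting the WT-labelled share stayed inside its interval of 30.1 to 33.0%, which narrowed the distance between the libraries. The upper range then made up 69.7% and 73.7% after thinning, 63.7% and 69.8% with 4 or more Camp and Ngp UMIs, and 49.1% and 46.1% with 1000 or more genes, where the order of the libraries turned. In the WT-labelled library it made up 58.1% with 4 or more replication UMIs and 58.1% with no condition on Mmp9. Thinning lowered the share of cells with 2 or more replication UMIs to 28.0% and 43.2% at 30 or more Camp and Ngp UMIs and to 17.3% and 18.8% below 10. Against replicating cells with fewer than 2 Camp and Ngp UMIs, 75 genes were lower after thinning, 217 from 50 UMIs per gene and 76 from 200, and scaling by the median of ratios gave 148 higher and 73 lower. Against Camp and Ngp cells without replication genes, thinning gave 247 higher and turned the secondary granule list of the KO-labelled library to 0.063, and the genes lower numbered 110 with 4 or more Camp and Ngp UMIs, 128 from 200 UMIs per gene and 71 with 30 or more Camp and Ngp UMIs on both sides, the last chosen after seeing the data. Between the libraries, genes higher and lower numbered 176 and 189 after thinning and 177 and 265 from 200 UMIs per gene, and the genes lower numbered 887 from 50 UMIs per gene, 356 with matched UMIs and 316 in the upper range. Matching on UMIs turned the primary granule list to 0.055, Mpo to 0.38 and S100a8 to -0.32. The upper range over the class of 2 to 3 Camp and Ngp UMIs, set again after thinning, gave -1.83 and -1.46 for the primary granule list and 0.50 for the mitotic list in the WT-labelled library. Unthinned counts gave a median log2 CV ratio of 0.31. Except where a setting itself removed cells, genes or UMIs, the cause was not tested.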
